A study of Homo sapiens with 9 samples.

Results

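TRAPPC12, MAEA and UVSSA are 3 human genes at 2 places in the genome, on chromosome 2 and on chromosome 4. They were chosen on measured values, as genes at bins where γH2AX, the phosphorylated form of the histone variant H2AX, covered much more of the DNA in FANCL knockout cells than in wild-type cells and less again after the knockout cells were treated with PMA. Each gene was examined with 20 kb on each side. Of the 234983 γH2AX regions in the 8 libraries, 334 overlapped these windows, a region in both the MAEA and the UVSSA window being counted once. The libraries held between 1 such region in WT mock replicate 1 and 69 in KO PMA replicate 2.

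The cells were K562, an established human myelogenous leukaemia line, either wild type (WT) or knocked out for FANCL (labelled FANCL-KO, here KO). Each genotype was given 5 nM PMA or a mock treatment for 72 h. This made 4 groups (WT mock, KO mock, WT PMA, KO PMA), each with 2 libraries of chromatin immunoprecipitation and sequencing (ChIP-seq) for γH2AX. The only input library, DNA without immunoprecipitation, came from WT mock cells. The labels name no clone for the knockout, the region lists do not measure FANCL itself, and the labels do not say that replicates were separate cultures. A p-value here is thus set against the scatter of the deposited libraries only, part of which may be technical.

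H2AX is phosphorylated by kinases of the DNA damage response along the chromatin on both sides of a DNA break or a stalled replication fork, so the mark spreads over a domain and does not sit at a point. FANCL is the ubiquitin ligase that modifies FANCD2 and FANCI in the repair of DNA crosslinks by the Fanconi anaemia pathway. PMA is a phorbol ester that activates protein kinase C and drives K562 cells out of the cycle towards a megakaryocyte-like state. TRAPPC12 is a subunit of the TRAPP complex, which tethers vesicles in traffic between the endoplasmic reticulum and the Golgi. MAEA is a subunit of the CTLH ubiquitin ligase and is also known for the attachment of erythroblasts to macrophages. UVSSA acts in transcription-coupled nucleotide excision repair, where it helps to bring the repair factor TFIIH to stalled RNA polymerase II.

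The libraries held 15.6 to 27.2 M (mega) tags, and the KO libraries were among the shallower ones at 15.6 to 18.3 M. Regions covered 8.42 to 9.85 Mb of the genome in WT mock, 24.9 to 31.5 Mb in WT PMA, 17.5 to 17.6 Mb in KO mock and 34.6 to 42.6 Mb in KO PMA. Between 1.39% and 7.96% of the tags lay in regions, and more γH2AX cannot be told apart from a more efficient immunoprecipitation. Every library was called against the WT mock input, so a copy number that differs in the other cells is not corrected for.

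TRAPPC12 lies at chr2:3383446-3488865 (hg19) and is 105 kb long. MAEA lies at chr4:1283639-1333925 and is 50.3 kb long, and UVSSA follows 7.18 kb further on, at chr4:1341104-1381837, with a length of 40.7 kb. All 3 genes are on the plus strand in the RefSeq annotation, where TRAPPC12 stands between EIPR1 and ADI1, and MAEA and UVSSA between CTBP1 and NKX1-1. The windows of MAEA and UVSSA share 32.8 kb, so the 2 genes have regions in common and are not independent of each other. Exons, introns and untranslated parts were not analysed here, since no annotation of hg19 was at hand.

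The promoters are printed because little was called within 1 kb of the starts of these genes, as the values further down show. They come from RefSeq (GRCh38.p14, plus strand, 250 bases before to 50 after the annotated start), on another build than the regions, and the positions are not exchanged between builds. They lie at chr2:3379444-3379743 for TRAPPC12, chr4:1289641-1289940 for the first of the 2 annotated starts of MAEA and chr4:1346958-1347257 for UVSSA. Capitals mark the GC box GGGCGG on either strand (CCGCCC when it is on the minus strand), the letters bound by factors of the Sp1 family.
TRAPPC12: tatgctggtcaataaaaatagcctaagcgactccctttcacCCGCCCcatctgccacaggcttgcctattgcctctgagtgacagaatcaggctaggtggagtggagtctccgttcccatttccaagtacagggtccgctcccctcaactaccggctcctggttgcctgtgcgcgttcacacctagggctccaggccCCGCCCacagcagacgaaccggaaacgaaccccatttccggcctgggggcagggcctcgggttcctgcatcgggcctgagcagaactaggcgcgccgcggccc
MAEA: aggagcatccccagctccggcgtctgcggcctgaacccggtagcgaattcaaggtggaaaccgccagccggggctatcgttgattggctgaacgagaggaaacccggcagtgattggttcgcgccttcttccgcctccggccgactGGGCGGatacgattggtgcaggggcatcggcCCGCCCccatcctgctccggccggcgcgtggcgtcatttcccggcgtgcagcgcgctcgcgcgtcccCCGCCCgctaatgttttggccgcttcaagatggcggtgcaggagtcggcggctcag
UVSSA: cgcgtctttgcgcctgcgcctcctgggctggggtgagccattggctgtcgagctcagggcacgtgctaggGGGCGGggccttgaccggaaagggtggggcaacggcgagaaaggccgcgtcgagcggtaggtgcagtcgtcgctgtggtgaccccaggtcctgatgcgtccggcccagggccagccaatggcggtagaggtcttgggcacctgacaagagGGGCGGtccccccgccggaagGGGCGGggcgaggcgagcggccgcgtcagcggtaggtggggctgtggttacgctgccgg
The GC content of these sequences was 61.7% in TRAPPC12, 67.3% in MAEA and 71.3% in UVSSA, against a median of 58.7% over all 35116 promoters of this length. CpG pairs numbered 18, 37 and 31 in the same order, against a median of 14. The GC box occurred 2 times in TRAPPC12 and 3 times each in MAEA and UVSSA, and 45% of all promoters held at least 1. The other annotated start of MAEA, at chr4:1309193-1309492, had a lower GC content of 56.3%, 9 CpG pairs and no GC box. A match of letters is a description and no sign that a factor binds there.

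At TRAPPC12 the γH2AX-covered length in the window of 145 kb was 0.5 and 2.0 kb in the 2 WT mock libraries and 56.6 and 51.0 kb in the 2 KO mock libraries. After PMA it was 16.3 and 19.7 kb in WT cells and 49.5 and 42.5 kb in KO cells. The order was thus WT mock, WT PMA, KO PMA and KO mock, and no 2 groups overlapped, although KO PMA replicate 1 and KO mock replicate 2 differed little. The means were 1.25 ± 1.06 kb (SD, n = 2) in WT mock, 53.8 ± 3.93 kb in KO mock, 18.0 ± 2.40 kb in WT PMA and 46.0 ± 5.00 kb in KO PMA. KO PMA had 0.855-fold the covered length of KO mock at this vesicle-traffic gene, a gap of 7.83 kb.

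At MAEA no region was called in either WT mock library, in a window of 90.3 kb. The covered length was 4.26 and 4.17 kb in WT PMA, 16.4 and 23.5 kb in KO mock and 15 and 14.8 kb in KO PMA. Both KO groups stood above WT PMA, KO mock replicate 1 stood little above KO PMA, and KO mock replicate 2 further above it. The means were 4.21 ± 0.0679 kb (SD, n = 2) in WT PMA, 19.97 ± 5.03 kb in KO mock and 14.9 ± 0.109 kb in KO PMA, and KO PMA had 0.746-fold the length of KO mock. The difference between those 2 groups was about as large as the spread between the KO mock libraries.

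At UVSSA, the repair factor of the trio, 0 and 0.5 kb of the window of 80.7 kb were covered in WT mock and 1.8 and 1.17 kb in WT PMA. In KO mock the covered length was 17.7 and 20.7 kb, and in KO PMA it was 9.25 and 9.06 kb. Here the groups were well apart, with KO mock highest and KO PMA between it and WT PMA. The means were 0.25 ± 0.354 kb (SD, n = 2) in WT mock, 1.48 ± 0.446 kb in WT PMA, 19.2 ± 2.06 kb in KO mock and 9.16 ± 0.135 kb in KO PMA, 0.477-fold of KO mock.

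**Figure D1:**
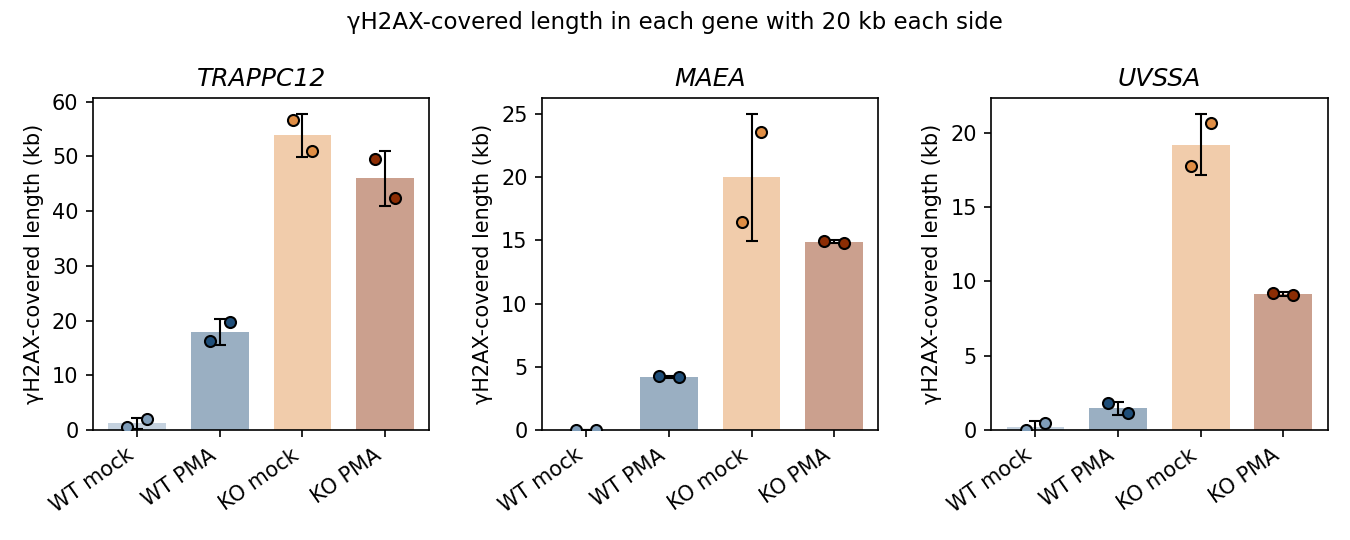
Covered length (kb, vertical axis) in the windows of TRAPPC12, MAEA and UVSSA for the 4 groups; bars are means of 2 libraries, error bars are SDs and points are libraries. KO mock is the highest group in each gene, and KO PMA is at 0.855-, 0.746- and 0.477-fold of it.

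The description under which these genes were chosen, raised in KO mock and lower again with PMA, was therefore met to different degrees. Covered length in KO mock exceeded that in WT mock by 4.41 (TRAPPC12), 4.51 (MAEA) and 4.28 (UVSSA) in log2(covered bp + 1000), on which 3, 1 and 4 of 9552 bins of 100 kb stood higher. These values depend on the added 1000 bp, because WT mock was at or near 0, and they chose the genes, so they carry no test. With limma 17.2% of all bins were called higher in KO mock at an adjusted p under 0.05. KO PMA was below KO mock by 0.22, 0.38 and 1.0 on the same scale in TRAPPC12, MAEA and UVSSA, and 5.34% of all bins were called lower in that comparison. In the same comparison 2565 bins had a lower value than TRAPPC12, 1667 than MAEA and 475 than UVSSA, while the median bin was higher by 0.21. The MAEA difference was -0.13 without KO mock replicate 2 and -0.63 without KO mock replicate 1. In TRAPPC12 it was -0.15 without KO mock replicate 1 and -0.11 without KO PMA replicate 2.

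KO mock libraries had tag thresholds of 7.30 and 7.69 tags per 10 M in the caller, above the 6.26 and 6.42 of WT mock. Regions were then kept in every library only if their mean tags per 500 bp reached the strictest threshold of 7.69. With these, KO mock exceeded WT mock by 5.01, 4.34 and 4.38 (log2) in TRAPPC12, MAEA and UVSSA. Among regions at 6-fold over input or more, however, the covered length of TRAPPC12 was 6.21 and 5.79 kb in KO mock and 7.44 and 8.33 kb in KO PMA. The same limit left 0.5 and 1.56 kb against 3.78 and 2.13 kb in MAEA, and 1.66 and 0.5 kb against 1.77 and 1.90 kb in UVSSA. Among these regions of high fold KO PMA was thus the higher group in all 3 genes, the opposite of the order over all regions. This order rests on few regions. They numbered 7 and 6 in KO mock against 8 and 11 in KO PMA at TRAPPC12. At MAEA there were 1 and 2 against 5 and 4, and at UVSSA 2 and 1 against 3 and 3. A high fold need not mean more tags, since it also arises where the input is low. At TRAPPC12 a region of 0.5 kb in KO PMA replicate 2 had 23.25-fold with 6.25 tags per 10 M. The region of 11.5 kb in KO mock replicate 2 had 3.98-fold with 228.8 tags, a total that also reflects its length. Over all TRAPPC12 regions, KO PMA replicate 2 held 17.7 tags per kb and KO mock replicate 2 held 18.8.

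As a share of all covered DNA of a library, the 3 windows stood out most in KO mock. TRAPPC12 held 3.23 and 2.89 per mille of the covered length of the KO mock libraries and 1.16 and 1.23 per mille of that of KO PMA. MAEA held 0.937 and 1.33 per mille in KO mock, and in KO PMA 0.351 and 0.428, and UVSSA 1.01 and 1.17 against 0.217 and 0.262. The KO PMA share was 0.390-, 0.343- and 0.219-fold of the KO mock share in TRAPPC12, MAEA and UVSSA, a larger gap than in covered length because the libraries of KO PMA covered more DNA in all.

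Under PMA, γH2AX covered more of all 3 genes in KO than in WT cells. Covered length was 2.56-fold higher in TRAPPC12, 3.54-fold in MAEA and 6.18-fold in UVSSA, and both KO libraries exceeded both WT libraries each time. In log2(covered bp + 1000) the differences were 1.29 (SE 0.30, limma adjusted p = 0.0238) for TRAPPC12, 1.63 (SE 0.20, limma adjusted p = 0.00353) for MAEA and 2.14 (SE 0.29, limma adjusted p = 0.00448) for UVSSA. Of all 9552 bins, 15.9% were called higher in KO PMA, and the median bin was lower by 0.21. This comparison did not choose the genes, but it contains the KO PMA libraries, which were asked to be lower than KO mock.

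The TRAPPC12 call was lost when any 1 of the 4 PMA libraries was left out (limma adjusted p = 0.112 and 0.0596 without WT PMA replicate 1 or 2, and 0.108 and 0.0738 without replicate 1 or 2 of KO PMA), with the lone library of a group assumed to vary like the others. Limited to regions at 6-fold over input or more, none of the 3 genes passed (limma adjusted p = 0.133, 0.153 and 0.128), and with 100 in place of 1000 bp added TRAPPC12 and UVSSA did not pass (0.152 and 0.105).

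In WT cells, covered length after PMA was above that after the mock treatment at all 3 genes, by 16.7 kb in TRAPPC12, 4.21 kb in MAEA and 1.23 kb in UVSSA. Every WT PMA library was above every WT mock library. In log2(covered bp + 1000) the differences were 2.90 (SE 0.30) in TRAPPC12, 2.50 (SE 0.20) in MAEA and 1.14 (SE 0.29) in UVSSA. They are given with no test, because the WT mock libraries were asked to be low by the choice of genes, which can raise the difference. Higher values after PMA were common, as limma called 32.1% of all bins higher and the median bin was higher by 0.66. TRAPPC12 had 255 of 9552 bins above it, MAEA 583 and UVSSA 3280. In UVSSA, with 2 to 3 regions per WT PMA library, the difference was 0.36 after each library was centred on its median bin.

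**Figure D2:**
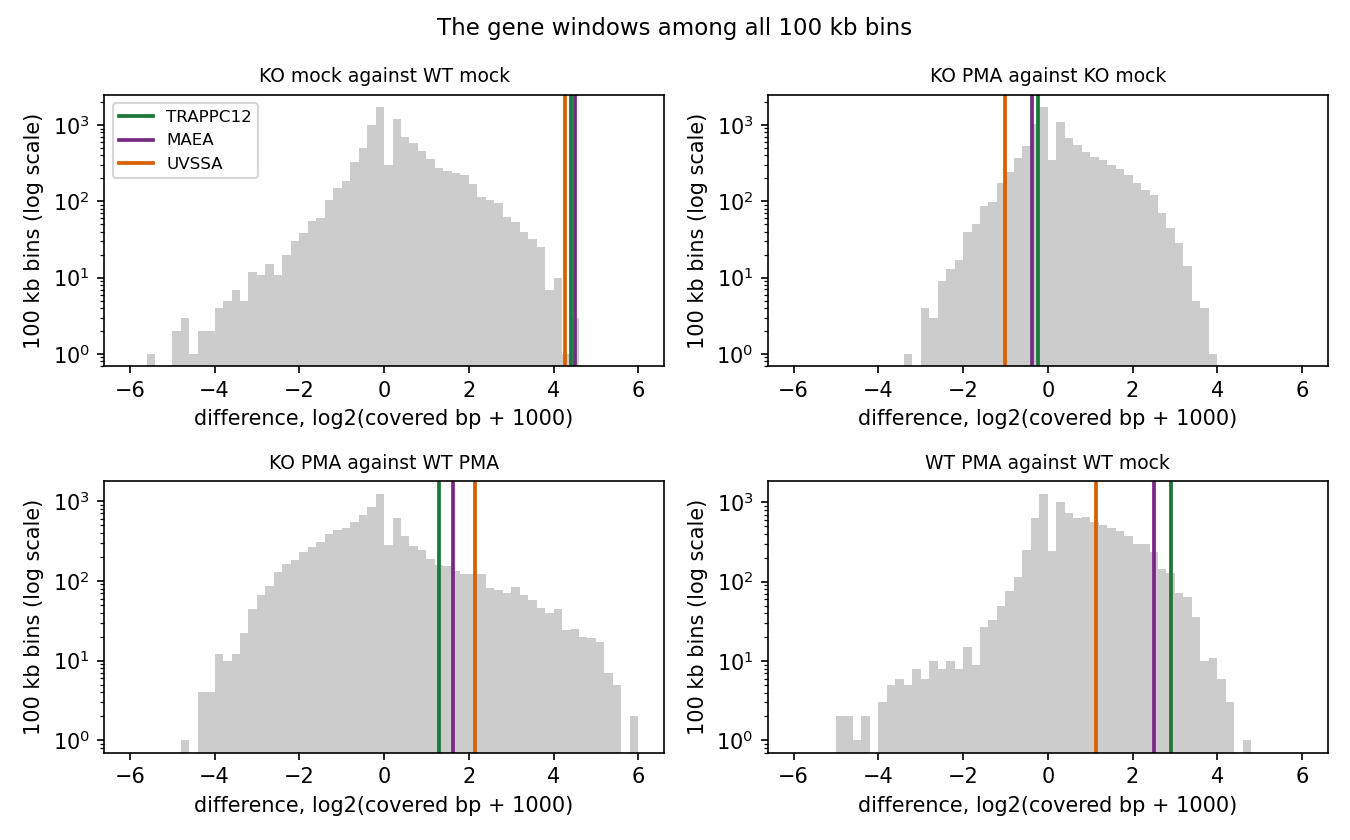
Differences in log2(covered bp + 1000) of the 9552 bins of 100 kb in 4 comparisons (grey, number of bins on a log axis), with vertical lines for the TRAPPC12, MAEA and UVSSA windows. The lines are at the right edge for KO mock against WT mock (4.41, 4.51 and 4.28), left of 0 for KO PMA against KO mock, and right of 0 in the others.

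The number of regions and their length moved differently between the KO groups. TRAPPC12 had 34 and 37 regions in KO mock, and in KO PMA 42 and 44, against 24 and 27 in WT PMA and 1 and 4 in WT mock. Its longest region measured 9.54 and 11.5 kb in KO mock but 3.20 and 2.73 kb in KO PMA and 2.55 and 2.56 kb in WT PMA. KO PMA thus had more regions at TRAPPC12 than KO mock (1.21-fold), and none as long. Whole libraries differed by more: KO PMA replicates 1 and 2 held 42896 and 37893 regions, those of KO mock 24773 and 24340. The higher count at TRAPPC12 is therefore no gain over the library totals. Long regions (5 kb limit) were also commoner in the KO PMA libraries, at 667 and 394 against 42 and 47. The shorter maximum at TRAPPC12 went the other way from these totals. MAEA had 19 and 21 regions in KO mock, and in KO PMA 16 and 19, and UVSSA 19 and 20 against 12 and 15, so here KO PMA had fewer regions, although the MAEA counts met at 19.

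Within TRAPPC12 the mark lay mostly towards the end of the gene in KO cells. When the gene was divided into 5 equal segments from its start, KO mock covered 21.0 ± 7.66% (SD, n = 2), 24.8 ± 7.89% and 20.7 ± 11.4% of segments 1, 2 and 3, and 62.4 ± 14.2% and 69.4 ± 14% of segments 4 and 5. KO PMA showed the same shape with 23.1 ± 11%, 19.0 ± 0.174%, 24.4 ± 10.5%, 40.5 ± 8.0% and 52.3 ± 16.7% in segments 1 to 5. The 20 kb downstream were covered to 46.8 ± 14.5% in KO mock and 47.6 ± 2.31% in KO PMA, and the 20 kb upstream to 13.3 ± 9.34% and 14.6 ± 4.09%. WT PMA had no such slope, with 14.4 ± 3.59%, 16.4 ± 7.81%, 12.3 ± 7.39%, 6.24 ± 5.48% and 10.2 ± 2.30% in the 5 segments. The gap between KO mock and KO PMA at TRAPPC12 therefore lay mainly in segments 4 and 5, while segments 1 and 3 and both flanks had higher means in KO PMA.

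Segment 4 was covered to 72.5% and 52.4% in the KO mock libraries and to 46.1% and 34.8% in the KO PMA libraries, which did not overlap. In segment 5 the KO mock libraries had 59.5% and 79.3% and the KO PMA libraries 64.1% and 40.5%, which did. In WT PMA segment 4 had 2.37% and 10.1%, and segment 5 had 11.9% and 8.61%.

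**Figure D3:**
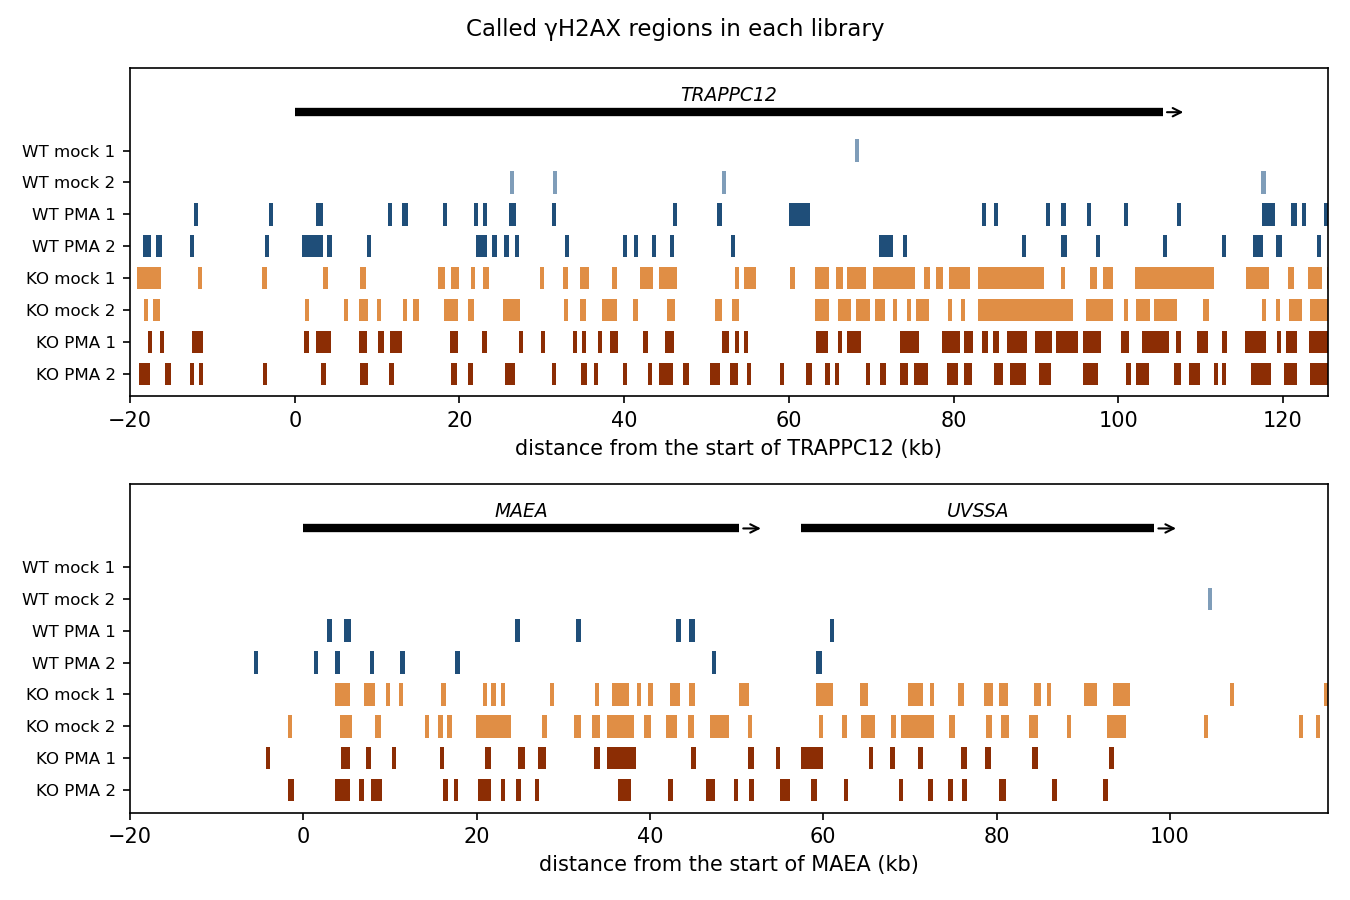
Called γH2AX regions (blocks) in each of the 8 libraries across TRAPPC12 (top) and MAEA with UVSSA (bottom), each with 20 kb on both sides; the horizontal axis is the distance from the start of TRAPPC12 or MAEA in kb and black bars with arrows are the genes. The widest block of all, 11.5 kb, is in KO mock replicate 2 from 83 kb after the TRAPPC12 start, and WT mock has almost no block.

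MAEA was marked along its whole length in KO cells but hardly before its start. KO mock covered 28 ± 8.90%, 13.2 ± 4.59%, 31.5 ± 16.5%, 45 ± 15% and 30.8 ± 15.3% of segments 1 to 5 (SD, n = 2), and KO PMA 25.9 ± 11.6%, 9.94%, 26.7 ± 3.92%, 27.5 ± 17.7% and 13.4 ± 9.91%. The 20 kb upstream, towards CTBP1, were covered to 1.25 ± 1.77% and 2.82 ± 0.456% in these groups, and in WT PMA to 1.25 ± 1.77%. The largest share of MAEA in WT PMA was in segment 1, at 14 ± 1.33%. The KO mock means exceeded those of KO PMA in all 5 segments, by less than the larger of the 2 SDs in segments 1 to 4.

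UVSSA carried the mark over its whole body in KO mock, and every segment had a lower mean in KO PMA. KO mock covered 31.4 ± 5.82%, 43.7 ± 23%, 29.7 ± 3.42%, 17.3 ± 1.59% and 34.8 ± 11.8% of segments 1 to 5 (SD, n = 2), and KO PMA 24.2 ± 14.1%, 13.4 ± 1.59%, 20.5 ± 4.05%, 7.09 ± 1.35% and 6.14%. WT PMA had 7.16 ± 1.44% in segment 1 and none in segments 2 to 5. The 20 kb downstream, towards NKX1-1, held no region in KO PMA or WT PMA and were covered to 6.01 ± 2.11% in KO mock and 1.25 ± 1.77% in WT mock. The gap between the KO group means of UVSSA was widest in segments 2 and 5, and in segment 2 the KO mock libraries also spread most.

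**Figure D4:**
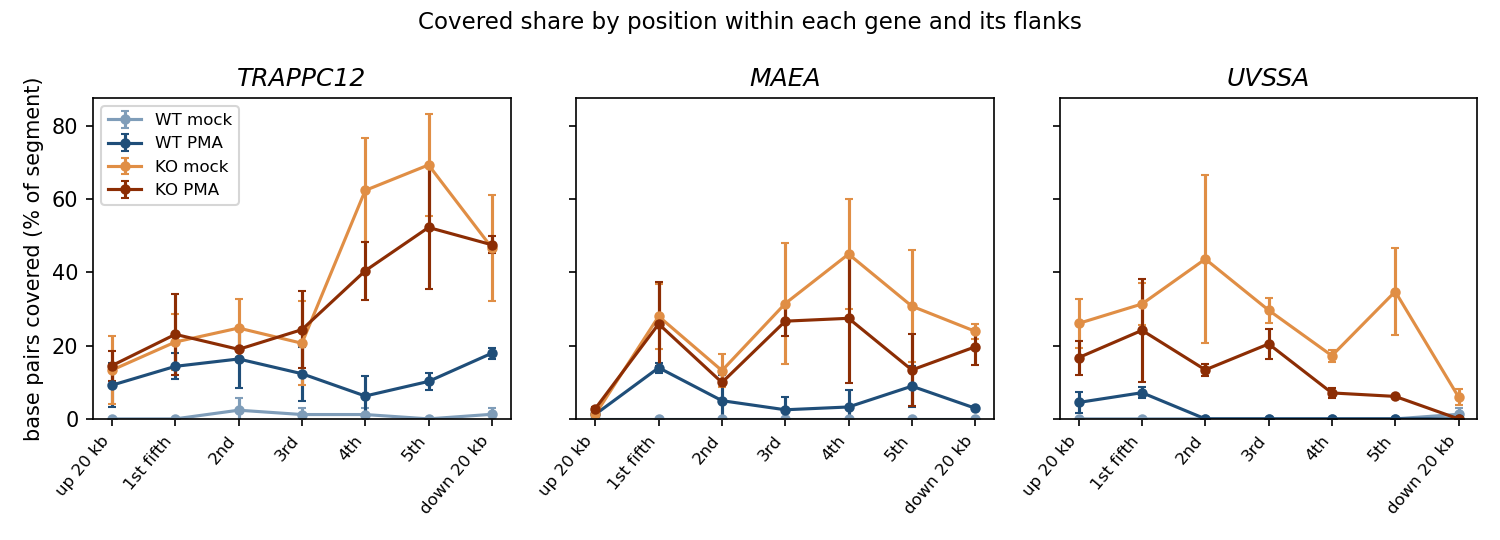
Covered share (% of each segment, vertical axis) of the 20 kb upstream, the 5 equal segments of the gene and the 20 kb downstream, for TRAPPC12, MAEA and UVSSA; points are means of 2 libraries and error bars SDs. In TRAPPC12 both KO groups climb in segments 4 and 5 (KO mock to 62.4% and 69.4%), and in UVSSA KO PMA declines to 6.14% in segment 5 while KO mock is at 34.8%.

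The starts of the genes, where the promoters printed above belong, carried little mark. Within 1 kb of the gene start nothing was called in any library for MAEA. For TRAPPC12 only WT PMA replicate 2 had covered DNA there, 160 bp, and for UVSSA only KO PMA replicate 1, 1034 bp. Over the whole gene body KO mock covered 39.7 ± 0.787% of TRAPPC12, 29.7 ± 8.48% of MAEA and 31.4 ± 0.720% of UVSSA (SD, n = 2). KO PMA covered 31.9 ± 5.08%, 20.7 ± 1.54% and 14.3 ± 2.6% in the same order. The windows at the starts are short and were not tested against the bodies. The 20 kb upstream of MAEA were also nearly bare in KO mock, at 1.25 ± 1.77%.

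The exact base pairs called repeated in part between replicates. In TRAPPC12, 32.7 kb were called in both KO mock libraries, 43.6% of the base pairs called in either, and 23.9 kb (35.1%) in both KO PMA libraries. In MAEA the base pairs common to both libraries were 8.90 kb (28.7%) in KO mock and 4.99 kb (20.1%) in KO PMA, and in UVSSA 8.90 kb (30.2%) and 2.13 kb (13.1%). WT PMA had 2.48 kb in common in TRAPPC12 and none in MAEA or UVSSA. Such shares grow with covered length, which was highest in KO mock by the choice of the genes, so nothing is read from their order.

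The longest stretch called throughout in both KO mock libraries was chr2:3466472-3474384 (hg19), 7.91 kb long and beginning 83 kb from the start of TRAPPC12. It belonged to a region of 7.91 kb in replicate 1 and to one of 11.5 kb in replicate 2. In KO PMA 5.02 and 3.68 kb of it were called, in WT PMA 1.0 and 0.5 kb and in WT mock none. Such a stretch is wholly called in KO mock by its definition, so another group can only match it or have less. A further stretch of 2.87 kb, chr2:3487778-3490648, spans the end of the gene and was called over 2.02 and 0.421 kb in KO PMA. Stretches called throughout in both KO PMA libraries were in part incomplete in KO mock. Of these, chr2:3462628-3464021, 1.39 kb long, was called over 1.18 and 0.5 kb in KO mock. Another, chr2:3470249-3472278, 2.03 kb long, was called throughout in both KO mock libraries.

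In MAEA the longest stretch called in both KO mock libraries was chr4:1319244-1321228, 1.98 kb long and 35.6 kb from the gene start. It was called over 1.98 and 1.27 kb in KO PMA and not at all in either WT group. A stretch of 1.11 kb near the MAEA start, chr4:1287920-1289029, was called over 1.10 and 1.09 kb in KO PMA and over 0.712 kb in WT PMA replicate 1. Both MAEA stretches were thus called in large part in KO PMA too. In UVSSA the stretches chr4:1353478-1355209 and chr4:1377114-1378593, of 1.73 and 1.48 kb, were called in KO PMA over 0.5 and 0 kb and over 0.054 and 0 kb. Little or nothing of both UVSSA stretches was thus called in KO PMA, and nothing of a stretch of 1.13 kb in TRAPPC12, chr2:3481656-3482785. All these stretches were picked on KO mock, so a lower length in KO PMA is no measure of a change with PMA.

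Of the base pairs called in both KO mock libraries, 74.6% in TRAPPC12, 68.6% in MAEA and 43.8% in UVSSA were also called in at least 1 KO PMA library. Those libraries together covered 46.8%, 27.5% and 20.05% of the whole windows in the same order. All 4 KO libraries called 11.9 kb of TRAPPC12, 2.57 kb of MAEA and 0.14 kb of UVSSA. DNA called in both KO mock libraries and in neither KO PMA library came to 8.31, 2.80 and 5.00 kb, and DNA with the reverse pattern to 2.92, 1.17 and 1.08 kb. The overlap thus followed the covered share of the window in its order over the 3 genes.

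The density of tags inside regions was alike in the KO groups, whereas fold over input was higher in KO PMA at MAEA and UVSSA. Regions at TRAPPC12 held 18.2 ± 0.863 tags per kb at 10 M tags (SD, n = 2) in KO mock and 17.3 ± 0.528 in KO PMA, those at MAEA 17.9 ± 0.550 and 17.3 ± 0.880, and those at UVSSA 17.6 ± 1.09 and 17.1 ± 1.11. Summed over the regions of a window, the authors' tags were 4.05 ± 0.307-fold over input in KO mock and 4.21 ± 0.299-fold in KO PMA at TRAPPC12. They were 3.81 ± 0.00637-fold and 4.63 ± 0.158-fold at MAEA, and 3.61 ± 0.129-fold and 4.52 ± 0.266-fold at UVSSA. In the KO mock libraries the median fold of single regions at TRAPPC12, 4.41 and 4.47, was above the 4.17 and 4.37 of all regions. It was 3.65 and 4.05 at MAEA and 3.91 and 3.97 at UVSSA, below those values. In KO PMA it was 4.07 and 4.41 at TRAPPC12, 4.53 and 4.36 at MAEA and 4.39 and 4.36 at UVSSA, against 4.07 and 4.26 over all regions.

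The WT mock input under these regions differed with the group that called them. At 10 M tags it held 4.40 to 4.96 tags per kb in the regions of KO mock, 3.69 to 4.24 in those of KO PMA and 2.52 to 3.68 in those of WT PMA, over the 3 genes. The average over the genome size used by the caller is 5 tags per kb, and the median region of the KO libraries had 4.25 to 4.36. All these values come from the same WT mock input, so they say which DNA was called and nothing on the copy number of KO cells. The part of input or copy number in the differences was not tested.

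The mark also extended beyond the windows. Upstream of TRAPPC12, in steps of 100 kb from the gene start, KO mock covered 31.7 ± 4.81, 27.6 ± 1.67, 13.4 ± 0.218, 3.26 ± 1.78 and 0.642 ± 0.201 kb (SD, n = 2), and KO PMA 17.7 ± 2.31, 7.39 ± 3.39 and 1.32 ± 0.253 kb, then none. Downstream the 2 groups were 14.2 ± 1.11 against 18.0 ± 1.14 kb in the first 100 kb and 19.1 ± 0.387 against 32.6 ± 3.51 kb in the next, with KO PMA higher. Beyond 200 kb downstream KO mock was higher again, at 10.3 ± 3.18 against 3.6 ± 1.37 kb. Per 100 kb, KO mock thus had the higher mean upstream of TRAPPC12 and KO PMA over the first 200 kb downstream. In single steps of 20 kb the order was not the same throughout, with KO PMA slightly higher over the first 40 kb upstream and KO mock higher from 180 to 200 kb downstream (7.89 and 5.08 kb against 4.71 and 3.36 kb).

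Around MAEA and UVSSA the first 100 kb upstream of MAEA were covered to 20.1 ± 5.51 kb in KO mock and 15.5 ± 7.18 kb in KO PMA, and the next 100 kb to 1.54 ± 0.0495 and 0.904 ± 0.571 kb. Downstream of UVSSA the first 100 kb held 2.0 ± 0.707 and 0.25 ± 0.354 kb. In steps of 20 kb upstream of MAEA, KO mock covered 0 and 0.5 kb in the first and 2.48 and 1.64 kb in the next. It then covered 6.78 and 9.29 kb at 40 to 60 kb. The marked stretch with both genes thus ended close after UVSSA and near the start of MAEA, with a further marked block upstream of a gap. At 300 to 400 kb and 400 to 500 kb downstream KO PMA was far above KO mock, with 46.5 ± 6.13 against 12.6 ± 1.66 kb and 42.0 ± 0.00636 against 18.3 ± 3.13 kb. Upstream of MAEA KO PMA was also higher at 200 to 300 kb, with 25.02 ± 0.400 against 12.4 ± 2.83 kb, and lower at 300 to 400 kb, with 24.7 ± 3.89 against 29.0 ± 0.210 kb. At 400 to 500 kb upstream it was lower by more, with 7.78 ± 1.93 kb in KO PMA and 21.7 ± 2.62 kb in KO mock.

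**Figure D5:**
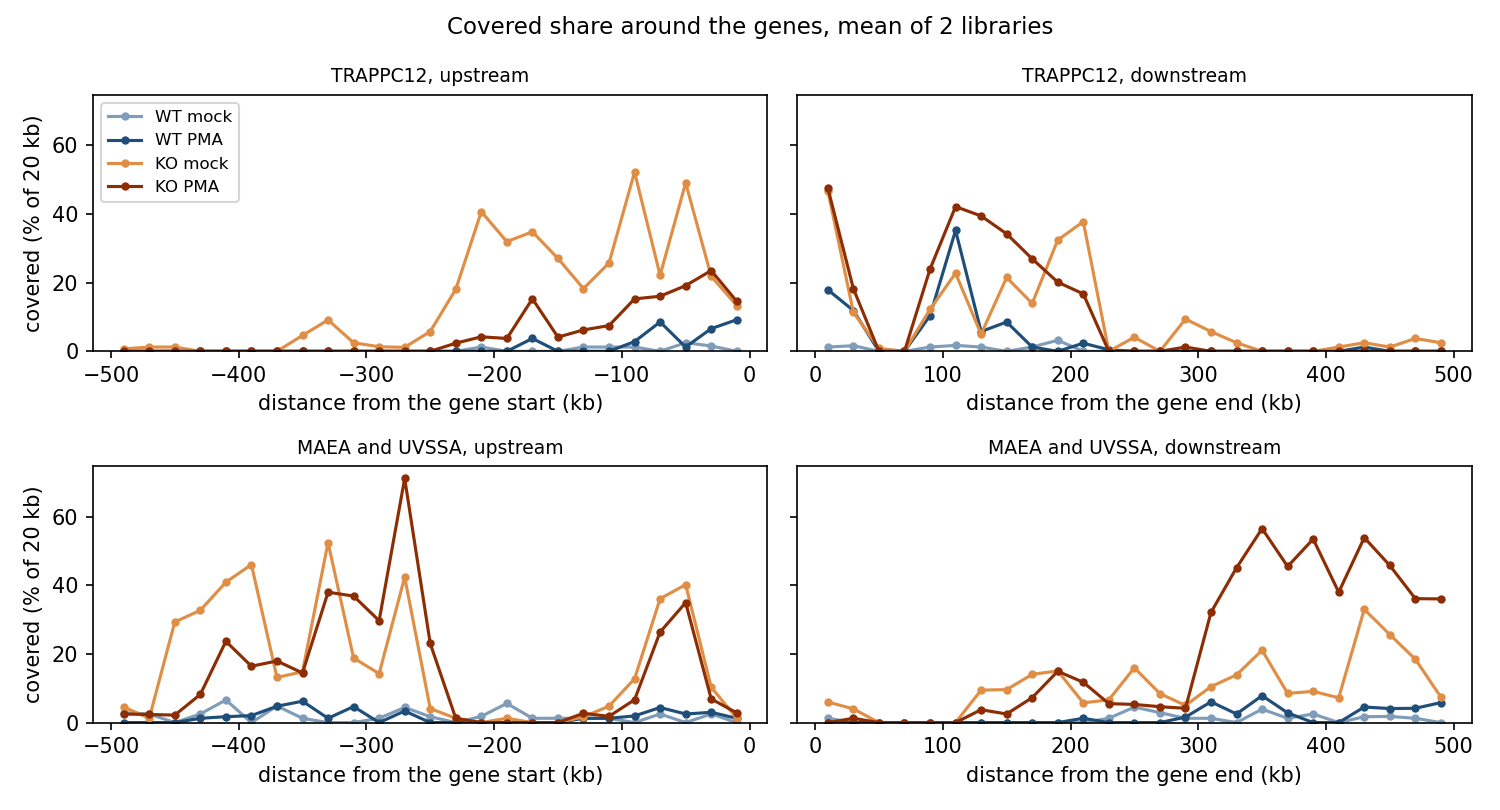
Covered share (% of each 20 kb step, mean of 2 libraries) up to 500 kb upstream and downstream of TRAPPC12 (top) and of MAEA with UVSSA (bottom), by group. Upstream of TRAPPC12 KO mock is above KO PMA from 40 to 360 kb, and further out both are at or near 0. KO PMA is above KO mock from 300 to 500 kb downstream of UVSSA.

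In single libraries, the bin chr2:3400001-3500000, which holds most of TRAPPC12, was covered over 47.0 and 41.1 kb in KO mock, and 1 and 2 of 12162 bins were covered more. In KO PMA it was covered over 36.2 and 30.9 kb, with 240 and 222 bins covered more. The bin chr4:1300001-1400000, with most of MAEA and UVSSA, was covered over 21.8 and 29.3 kb in KO mock with 56 and 22 bins above it, and over 14.8 and 14 kb in KO PMA with 844 and 717 above it. A high place in KO mock and a lower one in KO PMA were fixed by the choice of the genes.

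Other bins with a similar pattern over the 8 libraries were sought among 340 bins with at least 10 kb in KO mock, over 1 Mb away from the genes, by Pearson's r of log2(covered bp + 1000), as a description. Closest to TRAPPC12 was chr6:41500001-41600000 (r = 0.996), with 0 and 0.5 kb in WT mock, 6.80 and 7.15 kb in WT PMA, 17.0 and 13.3 kb in KO mock and 14.5 and 11.8 kb in KO PMA. The next were chr8:142200001-142300000 (r = 0.992) and chr22:23600001-23700000 (r = 0.990), then chr1:19600001-19700000 (r = 0.987) and chr2:47200001-47300000 (r = 0.978). Closest to the mean of MAEA and UVSSA was chr22:19800001-19900000 (r = 0.978), with 4.38 and 4.59 kb in WT mock, 7.83 and 8.15 kb in WT PMA, 27.0 and 31.8 kb in KO mock and 24.8 and 30.9 kb in KO PMA. It was followed by chr2:10300001-10400000 (r = 0.970), chr16:4700001-4800000 (r = 0.969), the same chr1 bin as for TRAPPC12 (r = 0.966) and chr21:46800001-46900000 (r = 0.959). These 9 bins share libraries, depth and thresholds with the genes, and the genes in them are not named here. The other subunits of the TRAPP and CTLH complexes and the other factors of transcription-coupled repair were not analysed here, since no positions on hg19 were at hand.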

How the data were processed

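γH2AX ChIP-seq of K562 cells gave 8 region lists, grouped by the sample titles. The submitters' processing notes name CASAVA 1.4, BWA, HOMER and hg19. HOMER was run by the authors on each library separately, per the file headers, against the WT mock input, from windows of 500 bp passing a depth-dependent tag threshold (5.89 to 7.69 tags per 10 M) and at least 2-fold over input, with 1 tag per bp. The deposited signal of a region is its tags per 10 M. The unscaled tag count of a region was deposited for 5 libraries, and tags scaled to the input depth for the other 3. The deposited fold is the authors' ratio of tags to input tags, their score is HOMER's own and was not used, and the deposited Poisson p-value of each region, from HOMER, was not used either.

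From these lists the base pairs inside called regions were summed in the gene windows, their segments and 100 kb bins of chromosomes 1 to 22 and X, with Python 3.11.15, numpy 2.4.6, pandas 2.3.3 and matplotlib 3.10.9. Bins covered in at least 2 libraries, with the 3 windows (as bp per 100 kb), were tested as log2(covered bp + 1000) in 1 fit of 4 groups by limma 3.58.1 (R 4.3.3; eBayes with trend), two-sided, with Benjamini-Hochberg adjusted p under 0.05 as the threshold. This scale understates changes of little-covered windows. The test was checked on simulated bins.

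The genes, the gene lists and the rules were chosen with earlier results of these data known. The 3 genes are always named. Bins like them were the 5 of highest r per place, at most 1 per 10 Mb. The contrasts that chose the genes, KO mock against WT mock and KO PMA against KO mock, are described without a test. WT PMA against WT mock was fitted alike, but its p-values are not printed for the genes, since the WT mock libraries took part in the choice. Alternatives were 100 bp added, regions of at least 6-fold, 1 tag threshold for all libraries, centring, genes without flanks, the replicate number as a block and leaving out each library. The 1 tag threshold was set on the mean tags per 500 bp of a region. A long region below it on average was dropped whole, even where a window in it would pass.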

Additional observations from a re-analysis of the deposited data

Results flagged for a closer look

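The response of covered length to PMA went in opposite directions in the 2 genotypes at all 3 genes: both WT PMA libraries were above both WT mock libraries, and both KO PMA libraries were below both KO mock libraries. In log2(covered bp + 1000), the response in KO minus that in WT was -3.12 in TRAPPC12, -2.88 in MAEA and -2.14 in UVSSA. This difference was not tested, because the choice of the genes used 3 of its 4 groups and fixed the direction in KO cells. MAEA and UVSSA share regions, so the 3 values stand for 2 places. Among regions at 6-fold over input or more, KO PMA was not below KO mock, so the opposite directions were not seen there.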

How the results depend on the processing

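With 100 bp added, called bins fell from 3613 to 2289 for KO PMA against WT PMA, where TRAPPC12 (1.35) and UVSSA (2.59) lost their calls. UVSSA was 2.82 for WT PMA against WT mock, and KO mock against WT mock became 5.52, 7.77 and 6.47 in TRAPPC12, MAEA and UVSSA. With regions of at least 6-fold, called bins were 1230 for KO PMA against WT PMA, 1138 (3283 over all regions) for WT PMA against WT mock, 250 (1992) for KO mock against WT mock and 369 (1762) for KO PMA against KO mock. TRAPPC12, MAEA and UVSSA, in this order, were then 0.83, 0.87 and 1.28 in the first comparison, without a call, 1.13, 1.19 and 0.086 in the second, 1.63, 1.04 and 0.80 in the third, and turned to 0.32, 1.02 and 0.56 in the fourth. With 1 tag threshold, bins called for WT PMA against WT mock were 1386 and UVSSA was at 0.78, while KO mock against WT mock was 5.01 in TRAPPC12 and KO PMA against KO mock -1.24 in UVSSA. With centring UVSSA was 0.36 for WT PMA against WT mock and MAEA 4.22 for KO mock against WT mock. Genes without flanks gave 4.91 in MAEA and 5.02 in UVSSA for that comparison. The causes were not tested, except that fewer regions enter at 6-fold.

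Centring moved the split of higher and lower calls to 2114 and 1267 for KO PMA against WT PMA (1517 and 2096 before), 1248 and 942 for WT PMA against WT mock (3062 and 221), 1185 and 567 for KO mock against WT mock (1647 and 345) and 1455 and 395 for KO PMA against KO mock (1252 and 510). Leaving out 1 library gave 1834 to 2786 called bins for KO PMA against WT PMA, 1434 to 2309 for WT PMA against WT mock, 795 to 1289 for KO mock against WT mock and 513 to 835 for KO PMA against KO mock. In TRAPPC12, MAEA and UVSSA it gave 1.16 to 1.42, 1.61 to 1.64 and 1.94 to 2.34 for KO PMA against WT PMA, and 2.49 to 3.31, 2.49 to 2.52 and 0.79 to 1.49 for WT PMA against WT mock. For KO PMA against KO mock it gave -0.33 to -0.11, -0.63 to -0.13 and -1.11 to -0.90. MAEA kept its call for KO PMA against WT PMA without any 1 library. The replicate numbers did not pair the libraries (correlations of deviations -0.0585 to 0.164), and with the replicate number as a block UVSSA for WT PMA against WT mock stayed at 1.14, no gene lost its call for KO PMA against WT PMA, and called bins numbered 3423, 3120, 1756 and 1520 in the order above. KO libraries of 15.6 to 18.3 M tags limit what weak windows could be called there.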

Other observations

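The regions of highest fold over input near these genes were short ones, not the long regions of KO mock. At TRAPPC12 the authors' fold reached 28.48 in WT PMA replicate 2, 23.25 in KO PMA replicate 2, 21.88 in WT PMA replicate 1 and 14.61 in KO mock replicate 1, each time in a region of 0.5 kb. These TRAPPC12 regions held 7.66, 6.25, 5.89 and 7.86 tags per 10 M in the same order, near the calling thresholds. Their high fold thus goes with little input and is no sign of more mark. Not every region of high fold had so few tags. A TRAPPC12 region of 0.638 kb in KO PMA replicate 2 had 22.08-fold with 11.9 tags per 10 M. At MAEA the highest fold was 18.6, in KO PMA replicate 2, 24.6 kb from the gene start. That MAEA region was 0.5 kb long and held 10 tags per 10 M. The 3 longest regions of KO mock replicate 1 at TRAPPC12, of 9.54, 7.91 and 5.10 kb, had folds of 3.38, 3.41 and 2.91, and the longest of replicate 2, of 11.5 kb, had 3.98.

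One short place inside TRAPPC12 recurred outside KO mock. About 31.3 kb from the start, a region of 0.5 kb beginning at position 3414770 of chromosome 2 was called in WT mock replicate 2 (fold 12.72), and overlapping regions began at 3414674 in WT PMA replicate 1 (13.68) and at 3414708 in KO PMA replicate 2 (13.95). This place was picked after its values were seen.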
